A study of Mus musculus with 9 samples.

Results

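The proteasome subunit genes were followed in motor neurons (MNs) of 3 hindlimb pools that differ in how they fare in mouse models of spinal muscular atrophy. The group was defined by name, as every gene whose symbol in the platform annotation has the form Psma to Psmg plus a number and that stands alone on a transcript cluster, the set of probes that reads one transcript. It held 46 genes of the 30176 genes that had a cluster to themselves, and each of the 46 had 1 cluster. They were sorted by role into 7 subunits of the core alpha ring, 6 of the core beta ring, 3 immunoproteasome subunits, 2 testis or thymus core subunits, 6 base ATPases, 3 other base subunits, 8 lid subunits, 3 base assembly chaperones, 4 core assembly chaperones and 4 activators or inhibitors. Psmb5, Psme2 and Psme2b share their clusters with other symbols and were therefore outside the group.

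The proteasome is the protease that breaks down ubiquitin-tagged proteins in the cytosol and nucleus. Its barrel-shaped core is built of alpha rings, which form the gate, and beta rings, which hold the active sites, and it is capped by a regulatory particle whose base of ATPases unfolds substrates and whose lid removes ubiquitin. Dedicated chaperones assemble each piece, other caps replace the regulatory particle on some cores, and interferon replaces the active-site subunits with immunoproteasome forms. Neurons depend on it for protein turnover in the soma and at synapses.

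All 9 mice were wild type, of the FVB strain and from 1 litter, with no disease allele, and each had received the tracer WGA-HRP in a single muscle of both hindlegs at postnatal day 14. The MNs traced from extensor digitorum longus (EDL, 1 µl of tracer) are named resistant, those from gastrocnemius (GS, 3 µl) intermediate and those from tibialis anterior (TA, 3 µl) vulnerable in the study. Spinal cords were taken after 48 h, stained MNs were cut out by laser capture, and the MNs of 1 mouse were hybridised to 1 array, which gave 3 arrays per pool. The methods give 35 µm sections and the sample records 20 µm sections of cervical cord. The study's text, however, places the cell bodies of these pools in the lumbar cord. Which record is right could not be told from these sources. Values are log2 signals, and in each list below they run in the order M11, M14 and M33 for EDL, M13, M30 and M31 for GS, and M0, M1 and M3 for TA.

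Across the whole arrays, the TA mice stood apart, M0 and M1 by the control probe sets and all 3 by the weights limma gave the arrays. The area under the ROC curve that separates positive from negative control probe sets was 0.779 and 0.778 for them, 0.828 for TA M3, 0.831 to 0.838 for GS and 0.844 to 0.854 for EDL. The weight was lowest for M3, at 0.356, with 0.449 for M0, 0.489 for M1 and 0.857 to 1.91 for the other 6 arrays. The 6 MN markers, among them the acetylcholine-synthesising enzyme gene Chat, were above the negative control median on all 9 arrays, and their mean log2 signal lay at 11.75 to 12.09 in EDL, 11.72 to 11.77 in GS and 10.76 to 11.72 in TA. Of the marker lists of other cells, the 10 microglial genes averaged 6.76 to 6.84 in EDL, 6.77 to 6.86 in GS and 6.499 to 6.73 in TA, and 4 of them were below the negative control median on every array. The 6 endothelial genes averaged 8.01 to 8.26, 8.23 to 8.51 and 8.22 to 8.66 in EDL, GS and TA, the 5 measured astrocyte genes 9.30 to 9.68, 9.26 to 9.65 and 9.56 to 9.98, and the 6 measured oligodendrocyte genes 12.41 to 12.54, 12.60 to 12.65 and 12.38 to 12.76. Between EDL and TA, 1 microglial gene (Ctss, 0.67) was called higher in EDL and 1 astrocyte gene (Slc1a2, -0.43) lower, while 0 MN and 0 oligodendrocyte markers passed. All 6 MN markers were nonetheless higher in EDL, 2 of them (Slc18a3 and Prph) at an unadjusted p under 0.05 in limma. The median difference was 0.64 for the MN markers, 0.09 for microglial, -0.18 for astrocyte and -0.09 for oligodendrocyte genes. Of the endothelial genes Cldn5 was called higher in EDL (1.27), against the direction of its list, whose other 5 genes were all lower in EDL at an unadjusted p under 0.05 without passing the adjustment and whose median was -0.40. The part that array quality, MN content and these other cells had in the differences below was not tested. Captured MNs were pooled, so fewer cells with a transcript and less transcript per cell cannot be told apart.

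Most proteasome genes were higher in the resistant than in the vulnerable pool. Between EDL and TA, 18 of 46 passed an adjusted p of 0.05 in limma, all of them higher in EDL by 0.59 to 2.03 log2 units, or 1.5 to 4.10 times, against 2.86% of all 65956 clusters called higher and 2.22% called lower. Among clusters with 1 symbol that were above the negative control median on all 9 arrays, as 41 of the 46 genes were, 8.83% were called higher. The median difference over the 46 genes was 0.86, a ratio of 1.82, beside -0.04 over all clusters. At an unadjusted p under 0.05, 35 genes were higher in EDL and 1 lower, against 9.19% of clusters higher. Of these 35, 17 did not pass the adjustment, with differences of 0.32 to 1.65 and adjusted p of 0.0518 to 0.122.

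The GS pool lay close to the EDL pool. Trending follows the filters of the study, higher in EDL at the unadjusted threshold with a GS mean between the other 2 pools. The p-values here came from limma and not from the software the study used, so the lists need not match. Of the 46 genes, 35 were trending, against 8.16% of all clusters. Most of that follows from the first condition, since 88.8% of all clusters higher in EDL at this threshold also had a GS mean in between, beside 35 of 35 genes here. The GS mean was nearer to EDL than to TA in all 35, as in 84.3% of trending clusters. Their median difference was 1.07 between EDL and TA and 0.20 between EDL and GS. Over the 46 genes, 37 had every EDL array above every TA array (9.23% of clusters) and 32 had every GS array above every TA array (7.53%). The shares in this paragraph start from all clusters, dim ones included, and were not taken over the brighter clusters alone.

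**Figure D1:**
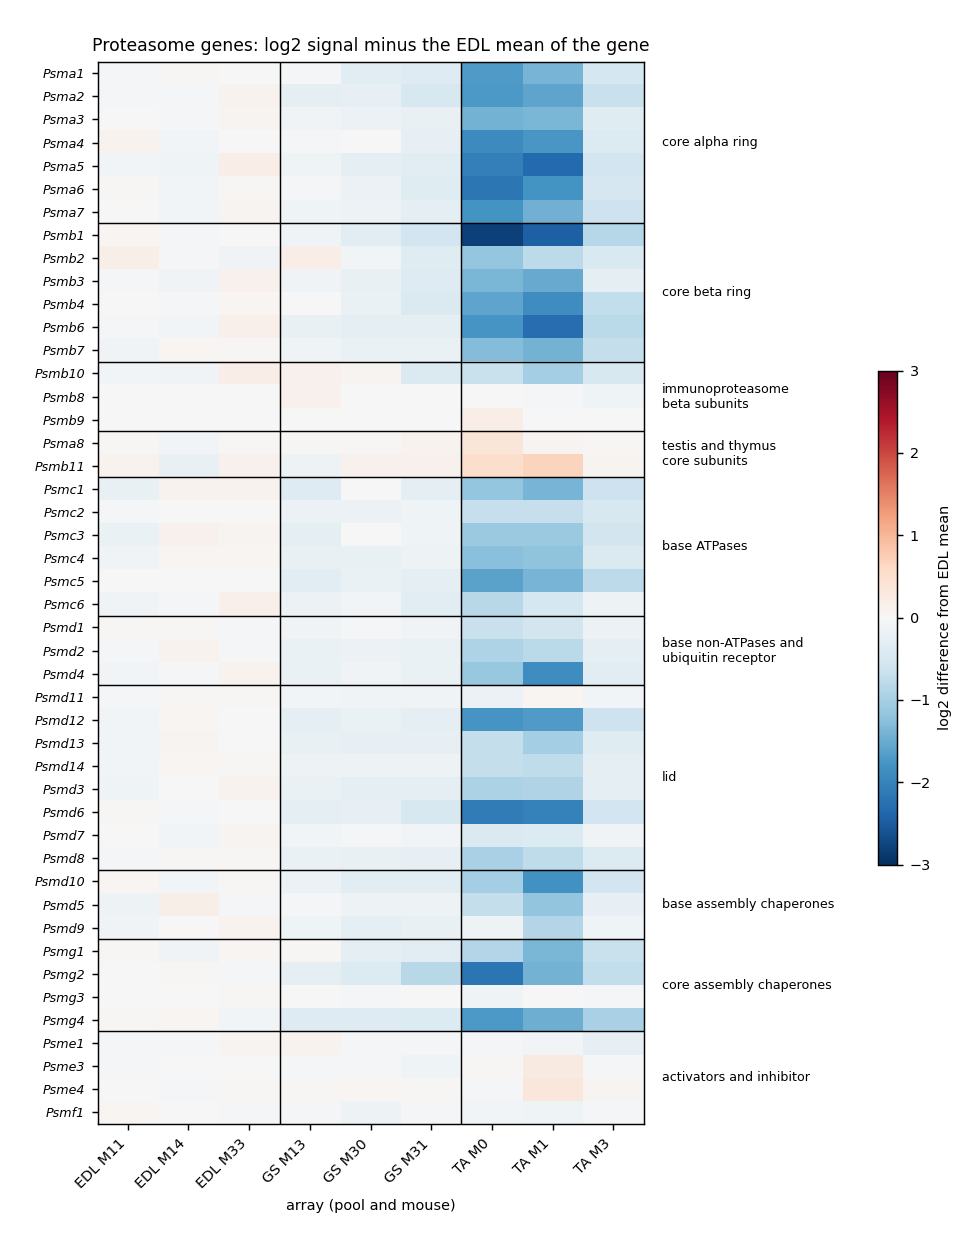
Log2 signal of each of the 46 genes (rows, by role) on each of the 9 arrays (columns), as the difference from the EDL mean of that gene. TA mice M0 and M1 are darkest, with medians of -1.0 and -1.15, TA M3 is paler at -0.42, GS lies between -0.24 and -0.12, and the 4 activator and inhibitor genes at the bottom have medians of -0.04, 0.10 and -0.06 in M0, M1 and M3.

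The 3 TA mice were not alike. The median of the 46 genes lay 1.0, 1.15 and 0.42 log2 units below the EDL mean in M0, M1 and M3, and 0.12 to 0.24 below it in the GS mice. M3 was above both M0 and M1 in 37 genes, and the standard deviation (SD) in TA exceeded that in EDL in 45. Neither count was taken over all clusters, so whether they are particular to these genes was not tested. The median SD of the 46 genes was 0.38 in TA, 0.08 in EDL and 0.07 in GS. M3 alone was nonetheless below all 3 EDL arrays in 41 of 46 genes, against 27.5% of clusters, and below all 3 GS arrays in 33, against 28.9%. Both shares are over all clusters, dim ones included, and M3 was the array with the lowest weight. Without M0 and M1, which left M3 as the only TA array, the median difference was 0.42, beside -0.0046 over all clusters. When the spread came only from the 6 arrays compared, 0 passed. Leaving out 1 mouse left 1 call without any of the EDL mice (Psmc2), 4 without any of the GS mice or without M0, 5 without M1 and 36 without M3. Of all clusters, 0.2% to 0.476% were called higher without an EDL mouse and 0.907% to 1.477% without a GS mouse. The share was 1.163% without M0, 1.281% without M1 and 7.202% without M3.

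**Figure D2:**
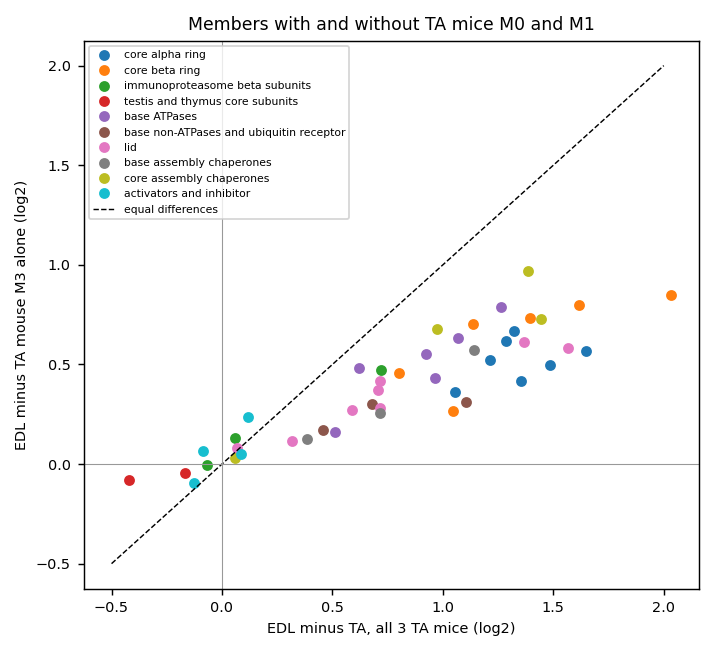
EDL minus TA difference (log2) of each of the 46 genes with all 3 TA mice (x axis) and with TA mouse M3 alone (y axis), coloured by role, with the line of equal differences dashed. Most points lie between that line and 0, so the difference is smaller against M3 (median 0.42) than against all 3 mice (median 0.86), and it keeps its sign in all but Psme3.

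All 7 alpha ring genes, whose products form the gate of the core, were higher in EDL by 1.05 to 1.65, with a median of 1.32, and 2 of 7 passed. Psma2 gave log2 signals of 13.80, 13.81 and 13.97 in EDL, 13.59, 13.61 and 13.39 in GS, and 12.14, 12.28 and 13.19 in TA. The pools did not overlap, and M3 was closest to GS. EDL exceeded TA by 1.32 with a standard error (SE) of 0.25 (adjusted p = 0.0342), and it exceeded GS by 0.33. Psma7 gave 10.53, 10.42 and 10.58 in EDL, 10.39, 10.36 and 10.23 in GS, and 8.71, 9.06 and 9.90 in TA. Again no pool overlapped another, with TA lowest, and the EDL minus TA difference was 1.29 (SE 0.26, adjusted p = 0.0412). The other 5, Psma1, Psma3, Psma4, Psma5 and Psma6, differed by 1.05 to 1.65 with adjusted p from 0.0518 to 0.0734. In all 7 genes every EDL and GS array lay above every TA array.

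Of the 6 beta ring genes, 4 passed, Psmb1, Psmb4, Psmb6 and Psmb7, and the median was 1.26. Psmb7, which carries the trypsin-like active site, gave 14.45, 14.61 and 14.59 in EDL, 14.43, 14.35 and 14.35 in GS, and 13.26, 13.14 and 13.85 in TA. EDL and GS were each above TA, and EDL was above GS on every array. The difference was 1.14 between EDL and TA (SE 0.17, adjusted p = 0.0195) and 0.96 between GS and TA (adjusted p = 0.0641). Psmb4, a beta subunit without an active site, gave 11.99, 11.94 and 12.07 in EDL, 11.98, 11.80 and 11.55 in GS, and 10.42, 10.13 and 11.26 in TA. Here EDL and GS overlapped, both stood above TA, and the EDL minus TA difference was 1.39 (SE 0.27, adjusted p = 0.0351). Psmb6, which carries the caspase-like site, differed by 1.62 (adjusted p = 0.0392), and Psmb1, also without an active site, by 2.03 (SE 0.45, adjusted p = 0.0496), the largest difference of the 46. Psmb2 and Psmb3 differed by 0.80 and 1.05 without passing (adjusted p = 0.0691 and 0.0917).

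The immunoproteasome subunits, which replace the active-site beta subunits under interferon, did not pass. Psmb10, the counterpart of Psmb7, gave 8.52, 8.49 and 8.79 in EDL, 8.73, 8.69 and 8.17 in GS, and 7.93, 7.58 and 8.13 in TA. Both EDL and GS were above TA, and they overlapped each other. The difference was 0.72 (SE 0.19, adjusted p = 0.0777). Psmb8, the counterpart of Psmb5, gave 5.53, 5.52 and 5.52 in EDL, 5.66, 5.52 and 5.54 in GS, and 5.51, 5.49 and 5.40 in TA. Psmb9, the counterpart of Psmb6, gave 5.65, 5.65 and 5.63 in EDL, 5.65 on all 3 GS arrays, and 5.83, 5.65 and 5.65 in TA. The signals of Psmb8 and Psmb9 were below the negative control median on all 9 arrays, so their differences of 0.06 and -0.07 carry no level of expression, and the latter turned to 0.02 when arrays were centred on their medians.

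The testis subunit gene Psma8 and the thymus subunit gene Psmb11 were below the negative control median on all 9 arrays too. Psma8 gave 5.05, 4.93 and 5.04 in EDL, 5.04, 5.05 and 5.12 in GS, and 5.37, 5.10 and 5.05 in TA. Psmb11 gave 4.53, 4.22 and 4.56 in EDL, 4.29, 4.56 and 4.56 in GS, and 4.96, 5.10 and 4.51 in TA. In both genes M0 was above all EDL arrays and M3 was within their range. The differences were -0.17 and -0.42 (adjusted p = 0.305 and 0.192), and Psmb11 was the gene that was lower in EDL at the unadjusted threshold.

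The base ATPases, which unfold substrates and feed them into the core, were mostly called. Of 6 genes, 5 passed, all but Psmc6 (0.51, adjusted p = 0.122), and the median was 0.94. Psmc2 gave 12.74, 12.79 and 12.79 in EDL, 12.59, 12.59 and 12.64 in GS, and 12.09, 12.09 and 12.29 in TA. The 9 arrays fell into 3 separate ranges, with EDL highest and TA lowest. For Psmc2, EDL exceeded TA by 0.62 (SE 0.06, adjusted p = 0.00881) and GS exceeded TA by 0.45 (adjusted p = 0.0394). Its EDL call was kept in 16 of 17 alternative analyses and lost when the spread came only from the 2 pools compared (adjusted p = 0.0631). No other called gene kept its call as often, with a range from 5 of 17 (Psmb1, Psmd2 and Psmd14) to 13 of 17 (Psmg4). Psmc5 gave 13.85, 13.87 and 13.88 in EDL, 13.53, 13.67 and 13.57 in GS, and 12.27, 12.48 and 13.08 in TA. Its ranges were separate as well, with a difference of 1.26 between EDL and TA (SE 0.18, adjusted p = 0.0192).

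Psmd2, the base subunit on which shuttle proteins dock, gave 13.34, 13.52 and 13.38 in EDL, 13.22, 13.23 and 13.22 in GS, and 12.49, 12.60 and 13.11 in TA. The pools did not overlap, and M3 lay just below GS. The difference was 0.68 (SE 0.15, adjusted p = 0.048). Psmd1, the other large scaffold of the base, gave 12.22, 12.23 and 12.14 in EDL, 12.08, 12.14 and 12.08 in GS, and 11.53, 11.66 and 12.03 in TA. M3 was the TA array nearest to GS, and the difference of 0.46 did not pass (adjusted p = 0.0672). The ubiquitin receptor gene Psmd4 differed by 1.11 (adjusted p = 0.107), with M1 as low as 8.85 and M3 at 10.41.

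Of 8 lid genes, 4 passed, Psmd8, Psmd12, Psmd13 and Psmd14, the last of which encodes the deubiquitinating enzyme of the lid, and the median was 0.71. Psmd8 gave 12.46, 12.56 and 12.55 in EDL, 12.33, 12.30 and 12.27 in GS, and 11.55, 11.77 and 12.11 in TA. Psmd13 gave 10.92, 11.09 and 11.04 in EDL, 10.79, 10.78 and 10.78 in GS, and 10.29, 9.999 and 10.64 in TA. In both, EDL was above GS and GS above TA on every array. The differences were 0.72 (SE 0.13, adjusted p = 0.0276) and 0.71 (SE 0.15, adjusted p = 0.0412). Psmd6 differed more, by 1.57, and did not pass (adjusted p = 0.0559). Psmd11, whose product contacts the core, was an exception named after its values were seen. It gave 11.97, 12.07 and 12.08 in EDL, 11.95, 11.94 and 11.93 in GS, and 11.86, 12.10 and 11.96 in TA. M1 was the highest array of the 9, the difference was 0.07 (SE 0.07, adjusted p = 0.581), and it was -0.17 after quantile normalization.

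**Figure D3:**
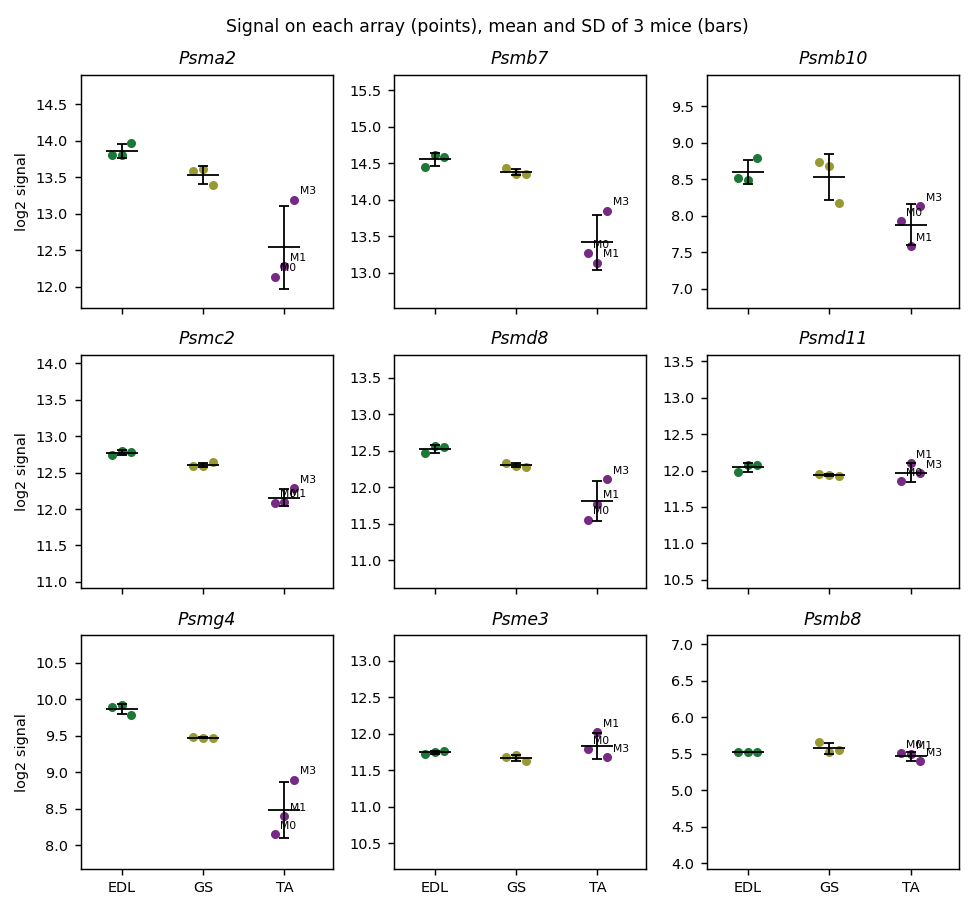
Log2 signal of 9 genes on each array (points), with the mean and SD of 3 mice (bars) for EDL, GS and TA, and every panel spanning the same log2 height. Psma2, Psmb7, Psmc2, Psmd8 and Psmg4 descend from EDL to TA with M3 the highest TA mouse, while Psmd11, Psme3 and Psmb8 stay nearly level, with differences of 0.07, -0.09 and 0.06 between EDL and TA.

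The chaperones that assemble the particle act on the base or on the core. Of the 3 base chaperone genes, 0 passed and the median was 0.72. Psmd10, known as gankyrin, gave 11.05, 10.91 and 11.04 in EDL, 10.82, 10.69 and 10.66 in GS, and 9.97, 9.18 and 10.43 in TA. Psmd5 gave 11.48, 11.79 and 11.59 in EDL, 11.59, 11.46 and 11.46 in GS, and 10.91, 10.43 and 11.36 in TA. In both genes M1 was lowest and all TA arrays were below all others. The differences of 1.14 and 0.72 had adjusted p of 0.0602 and 0.103. Psmd9 differed by 0.39 (adjusted p = 0.288).

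Of the 4 core chaperone genes, 2 passed. Psmg4, whose product acts with that of Psmg3 on the alpha ring, gave 9.90, 9.92 and 9.79 in EDL, 9.49, 9.48 and 9.47 in GS, and 8.15, 8.40 and 8.90 in TA. No pool overlapped another, and EDL was also 0.39 above GS. The difference between EDL and TA was 1.39 (SE 0.17, adjusted p = 0.0128). Psmg1, which acts with Psmg2, gave 9.05, 8.92 and 9.07 in EDL, 9.04, 8.72 and 8.70 in GS, and 8.14, 7.64 and 8.34 in TA. EDL and GS overlapped and TA was below both, with a difference of 0.97 (SE 0.18, adjusted p = 0.0303). Psmg2 differed by 1.45 (adjusted p = 0.0544). Psmg3, at 6.37 to 6.54 and above the negative control median on 8 arrays, differed by 0.06.

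The listed caps that replace the regulatory particle, and the inhibitor, are 6 genes, of which 4 had a cluster of their own. Of these 4 genes 0 passed, 0 were higher at the unadjusted threshold, and the median difference was 0.0003. Psmf1, which encodes the inhibitor PI31, gave 7.83, 7.78 and 7.73 in EDL, 7.73, 7.62 and 7.73 in GS, and 7.71, 7.65 and 7.73 in TA. Psme1, a subunit of the interferon-inducible cap, gave 6.72, 6.72 and 6.83 in EDL, 6.86, 6.73 and 6.72 in GS, and 6.72, 6.68 and 6.52 in TA. The EDL and TA arrays of both met or overlapped, and the differences were 0.09 and 0.12 (adjusted p = 0.356 and 0.363). The cluster shared by Psme2, the partner of Psme1, and Psme2b lies outside the group and was called higher in EDL (0.57, adjusted p = 0.0105). Psme3, whose product forms a nuclear cap, gave 11.72, 11.75 and 11.77 in EDL, 11.68, 11.71 and 11.62 in GS, and 11.79, 12.02 and 11.68 in TA. Psme4, which encodes the large single-chain cap, gave 10.01, 9.94 and 10.01 in EDL, 10.01, 10.04 and 10.01 in GS, and 9.94, 10.32 and 10.08 in TA. M1 was highest in both, and the differences were -0.09 and -0.13 (adjusted p = 0.589 and 0.456), the former turning to 0.01 without M1. In the median, M0 and M1 lay -0.04 and 0.10 from the EDL mean over these 4 genes, and -1.80 and -1.57 from it over the alpha ring. Psme1 and Psmf1, at 6.52 to 7.83, had little room above the negative control medians of 5.98 to 6.48 for a fall of that size. Psme3 and Psme4, at 9.94 to 12.02, were brighter. Why these 4 genes differed little between the pools was not tested.

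**Figure D4:**
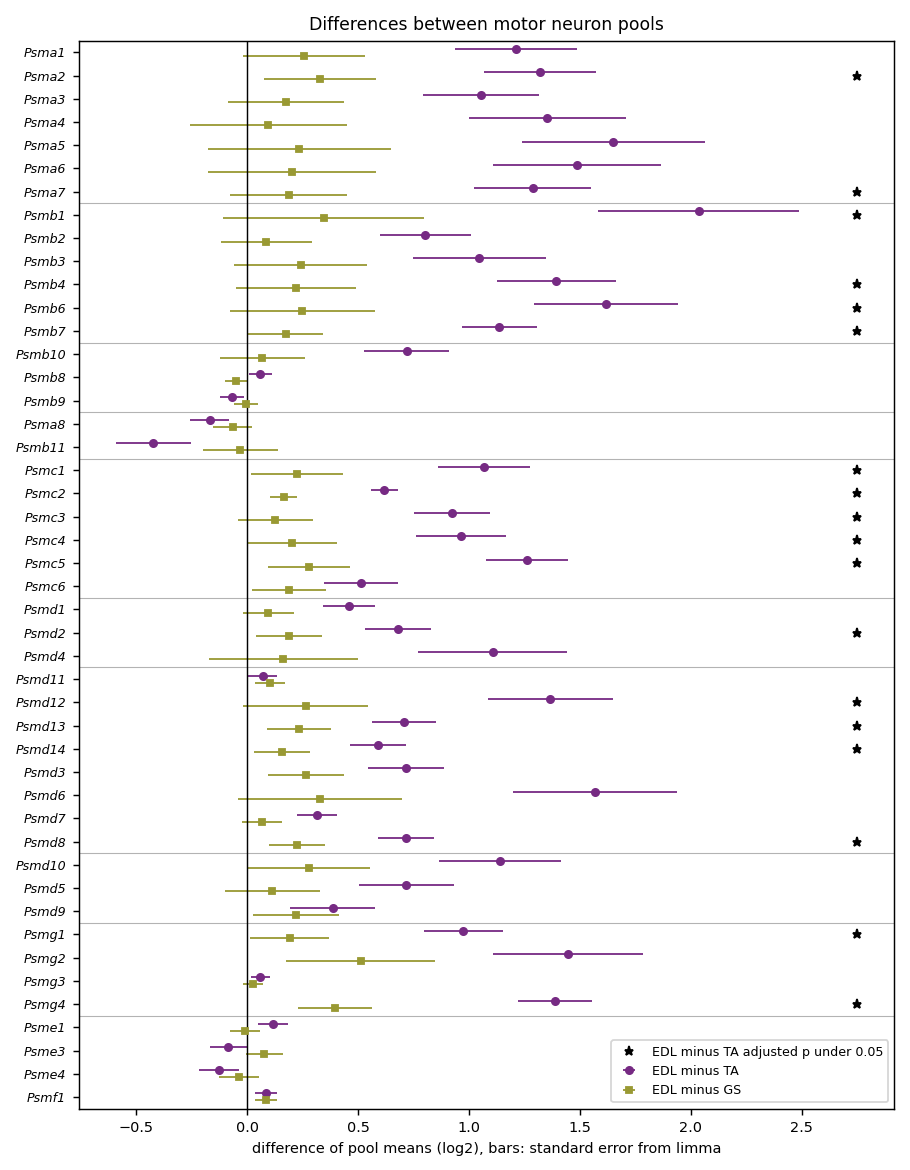
Differences of pool means (log2) for each of the 46 genes, by role in the order of the text, as EDL minus TA (circles) and EDL minus GS (squares), with SE from limma as bars and stars for the 18 genes with an adjusted p under 0.05 between EDL and TA. EDL minus TA spans -0.42 to 2.03 and EDL minus GS -0.07 to 0.51.

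Between GS and TA, 1 of 46 genes passed, Psmc2, against 0.385% of clusters called higher in GS, while 34 were higher at an unadjusted p under 0.05 and the median difference was 0.74. The call was lost without any 1 mouse other than TA M3. Without M3, 34 genes passed, 33 of them higher in GS, against 5.642% of clusters called higher. Between EDL and GS, 0 genes passed in limma, as did 0% of clusters, and 0 passed in each of the other analyses tried. At an unadjusted p under 0.05, 2 genes were higher in EDL, Psmc2 (0.16) and Psmg4 (0.39), against 1.51% of clusters. The differences were small but mostly of 1 sign, with a median of 0.19 and 40 of 46 above 0. Of all clusters 40.8% were above 0, with a median of -0.02. Among clusters with 1 symbol above the negative control median on all 9 arrays, 55.5% were above 0. In 25 genes every EDL array was above every GS array, against 5.18% of all clusters, dim ones included. The comparisons with TA share its 3 arrays, so they are not independent of each other.

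Partners of the particle that lie outside the naming rule were read from lists written with earlier results known. Of 9 measured partners 1 passed and the median was 0.48. Pomp, which matures the core, gave 13.98, 14.11 and 14.21 in EDL, 13.69, 13.82 and 13.57 in GS, and 12.05, 11.96 and 12.96 in TA, and no pool overlapped another. EDL exceeded TA by 1.78 (SE 0.25, adjusted p = 0.0167), and by 1.14 without M0 and M1. Uchl5, a deubiquitinating enzyme of the base, differed by 2.20 (adjusted p = 0.0616) and the lid subunit gene Sem1 by 1.22 (adjusted p = 0.0742), while Zfand2a differed by -0.30.

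Genes that act around the particle differed less. Of 5 measured genes that control proteasome gene transcription 0 passed, the median was 0.10, and Nfe2l1, whose factor drives proteasome genes when proteolysis is impaired, differed by -0.06 (adjusted p = 0.406). Of 9 measured genes that deliver ubiquitinated proteins 1 passed, Ufd1 (0.33, adjusted p = 0.0242), and the median was 0.40. The segregase gene Vcp differed by 0.90 (adjusted p = 0.0536). Of 8 measured genes of class I antigen presentation and interferon 1 passed, B2m (1.21, adjusted p = 0.0117), and the median was 0.04. None of the 4 ubiquitin genes listed was measured on a cluster of its own.

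**Figure D5:**
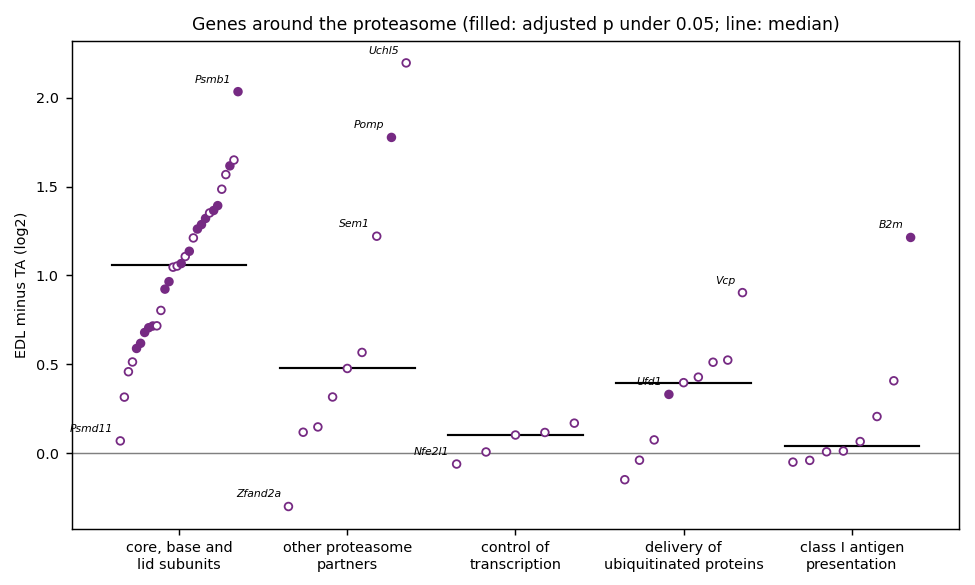
EDL minus TA difference (log2, y axis) of the core, base and lid subunit genes and of 4 lists of genes around the proteasome, each point a gene, filled where the adjusted p was under 0.05, with the median of each list as a line. The medians of the 4 lists are 0.48, 0.10, 0.40 and 0.04 from left to right.

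Since the subunit genes lay on 1 side together, their promoters were read from RefSeq (GRCm38.p6) in windows of 250 bases before to 50 bases after the start site, which were found for 38 of the 46 genes. The antioxidant response element TGACNNNGC, searched on both strands and bound by the factors Nfe2l1 and Nfe2l2, was found in 5 of 38 (13.2%), beside 12.4% of all promoters and 14% of all genes. The CCAAT box, bound by NF-Y, was found in 14 of 38 (36.8%), beside 37.4% of promoters and 41.1% of genes. Of the 15 genes that passed between EDL and TA and had a window, 2 held the first motif, Psmb6 and Psmd12, and 5 the second. The 5 matches to the response element are shown with the match in capitals, read 5′ to 3′ on the plus strand, on which all 5 genes lie; 3 of the matches are in the opposite orientation.
Psmb6 (chr11:70525322-70525382, same orientation, passed between EDL and TA): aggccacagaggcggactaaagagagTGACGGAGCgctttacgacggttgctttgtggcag
Psmd12 (chr11:107479278-107479315, opposite orientation, passed between EDL and TA): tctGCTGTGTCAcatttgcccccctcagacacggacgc
Psmc6 (chr14:45329574-45329631, opposite orientation, did not pass): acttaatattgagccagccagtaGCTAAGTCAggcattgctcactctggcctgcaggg
Psmd9 (chr5:123228133-123228193, same orientation, did not pass): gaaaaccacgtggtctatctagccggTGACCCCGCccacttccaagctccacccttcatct
Psme4 (chr11:30771742-30771802, opposite orientation, did not pass): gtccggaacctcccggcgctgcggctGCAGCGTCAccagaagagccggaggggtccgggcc
Matches were present in the promoters of genes with differences between EDL and TA from 1.62 for Psmb6 to -0.13 for Psme4, at shares close to those of all genes.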

How the data were processed

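MNs traced from EDL, GS and TA were captured from 9 mice and the RNA of each mouse was hybridised to 1 GeneChip mouse transcriptome array. The authors summarised and normalized the probes by RMA (sst-RMA in Expression Console per the methods, RMA and Transcriptome Analysis Console per the submitters' notes) and deposited log2 values. For the settings and the genome build, nothing was found in the sources used here. The deposited table held 72688 probe sets. The 6732 controls were left out, and no further scaling was applied to the remaining 65956 clusters. Arrays carry no read depth, and the 3 mice per pool limit the precision. Summarised values can be equal on several arrays, as in 20 of the 46 genes, so some SDs are close to 0.

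Genes were named from the platform annotation. limma 3.58.1 in R 4.3.3 fitted 1 mean per pool to all 9 arrays, with two-sided p-values adjusted by Benjamini-Hochberg over all clusters and a threshold of 0.05. P-values measure the spread between mice of 1 litter. The fit was tested on simulated data that had the same spread in every pool. That test cannot show how the fit behaves with the wider spread of the TA arrays. No mouse number was shared between pools, so no pairing was possible. The members and lists were chosen with earlier results of these data known, and no set test was run. Log2 values for every array are given for the 2 genes of each role with the largest t in size between EDL and TA, for all immunoproteasome, testis and thymus genes, and for genes below 0. Pomp, Psmd11 and the genes given by their differences alone were named after their values were seen. Alternatives were another scaling, each mouse left out, TA mice M0 and M1 left out, the spread from the pools compared only, an unmoderated test, a trended robust fit, array weights and a filter on dim clusters, which 42 of the 46 genes passed.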

Additional observations from a re-analysis of the deposited data

How the results depend on the processing

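The number of genes called between EDL and TA (18) ranged from 1 to 36 when a mouse was left out. It was 1 without each EDL mouse (Psmc2), 4 without each GS mouse or TA M0, 5 without TA M1 and 36 without TA M3, of which 35 were higher in EDL and 1, Psmb11, lower. It was 7 without TA M0 and M1, 0 with the spread from the pools compared only, 2 with the unmoderated test (Psmc2 and Psmg4), 30 with array weights, and 31 with dim clusters left out, a test over 33102 clusters. With arrays centred on their medians it was 23 (4.106% of clusters called higher), after quantile normalization 26 (4.815%) and with the trended robust fit 15 (2.424%). The share of clusters called higher was 0.608% with the unmoderated test and 3.818% with array weights, beside 2.86% for the count of 18. With dim clusters left out it was 9.181% of the 33102 clusters, so the share of all tested clusters rose there too. Of all clusters, 3 were called higher with the spread from the pools compared only, 132 to 314 without an EDL mouse and 4750 without M3. The cause was not tested.

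For GS against TA (1), the count was 3 after quantile normalization, 4 with array weights, 5 with dim clusters left out and 1 with centred arrays. In the same order, 0.714%, 0.337%, 2.229% and 0.365% of clusters were called higher in GS. The count was 0 to 34 with a mouse left out. It was 0 with the spread from the pools compared only, with the unmoderated test and with the trended robust fit. For EDL against GS it was 0 throughout. The trending count stayed between 29 and 39. The median difference was 0.42 without M0 and M1 and 0.75 to 1.04 with a mouse left out. Of the 46 genes, Psmb9, Psmd11 and Psme3 changed sign in at least 1 analysis. No gene had a second cluster to exchange. No paired analysis was possible because the pools shared no mouse number. Clusters below the negative control median limit what can be said of Psmb8, Psmb9, Psma8 and Psmb11.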

Other observations

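Clusters next to the group were read too, as a choice made once their values were known. The cluster shared by Psmb5, which carries the chymotrypsin-like site, and the microRNA gene Mir686 gave log2 signals of 14.29, 14.21 and 14.55 in EDL, 14.25, 14.003 and 13.84 in GS, and 12.05, 11.27 and 13.44 in TA. TA was below both other pools on every array, and the difference between EDL and TA was 2.096 (limma, adjusted p = 0.0537). The cluster of Psme2 and Psme2b, subunits of the interferon-inducible cap, had an EDL mean 0.57 above that of TA (adjusted p = 0.0105), unlike that of its partner Psme1. On this cluster M0, M1 and M3 were close to each other, at 7.47, 7.40 and 7.39. A cluster that reads Psme2 and Psme2b together with Psme2b-ps differed by -0.18 (adjusted p = 0.455).

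The pseudogene Psmb6-ps gave 6.55, 6.57 and 6.59 in EDL, 6.01, 6.01 and 6.02 in GS, and 5.06, 5.09 and 5.41 in TA. The pools were separate, with differences of 1.38 between EDL and TA (adjusted p = 0.00445) and 0.83 between GS and TA (adjusted p = 0.0319). Only the 3 EDL arrays were above the negative control median. All GS and TA signals lay below it, so the difference between these pools carries no level of expression. Psmb5-ps differed by 1.84 between EDL and TA (adjusted p = 0.0496). Probes for a processed pseudogene and for its parent gene can share sequence, and which transcript gave these signals was not tested.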
